A study of Sus scrofa with 64 samples.

Results

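The transcripts of 7 proteins that pig liver secretes into plasma as carriers or binding proteins were followed across 16 tissues: ALB, TTR, RBP4, AHSG, HP, AMBP and ITIH4. They were found by gene symbol in the annotation of the array platform, which gave 8 probes, 1 for each gene and a second for RBP4, out of 23935 probes and 6567 named genes. All 8 symbols equalled the RefSeq symbol of their Entrez number. Of the RBP4 probes, the one with the higher mean over all arrays is called RBP4 and the other the second RBP4 probe.

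Total RNA of each tissue was hybridised to Affymetrix porcine GeneChips, 1 array per tissue and animal, 64 in all. The liver was compared with 15 tissues: back and abdominal fat, blood, diaphragm, Biceps femoris, ileum, stomach, both parts of the adrenal gland (cortex and medulla) and of the pituitary (adenohypophysis and neurohypophysis), thyroid and pineal glands, hypothalamus and olfactory bulb. The 4 animals were a Large White male (87 days, 38.8 kg), a Large White female (87 days, 36.2 kg), an Iberian female (89 days, 32.8 kg) and an Iberian male (89 days, 25.4 kg), all untreated and kept together on the same diet. Every group is thus made of the same 4 animals, so breed rests on 2 animals against 2 and each combination of breed and sex on 1 animal, and breed cannot be told apart from age and weight. The liver samples came from the quadrate and left lateral lobes, the stomach and ileum samples from epithelium, and the adrenal cortex and medulla were parted with a knife. Levels were taken as log2 values of the probe set signal after RMA, so that 1 unit is a doubling. This scale was read from the range of the values, which is that of RMA output, because the methods name a logarithm after RMA without its base. The median of all values was 5.47, and the array medians ran from 5.38 to 5.52. A probe's level is compared between tissues only, never with that of another probe. In whole tissue, fewer cells of a type and less RNA per cell cannot be told apart.

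Hepatocytes make most of the protein of plasma and release it by constitutive secretion, so that its transcripts are among the most abundant of the organ. Albumin carries fatty acids, bilirubin and many drugs. Transthyretin (TTR) carries thyroxine and holds retinol-binding protein (RBP4) in a complex too large to be lost in the kidney, while RBP4 brings retinol from liver stores to other tissues. Fetuin-A (AHSG) keeps calcium phosphate in solution, haptoglobin (HP) binds free haemoglobin, AMBP is the precursor of alpha-1-microglobulin and of the protease inhibitor bikunin, and ITIH4 is known in pigs as a major acute phase protein. Outside the liver, TTR is known for its synthesis in the choroid plexus of the brain and RBP4 for its release by fat cells.

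The liver label was checked on hepatocyte genes whose products are not secreted. All 14 measured of 28 listed enzymes and receptors were higher in liver than in the mean of the other tissues. Their mean level ran from 9.79 to 10.25 over the 4 livers, with medians of 3.63 to 5.11 in the other tissues. In blood, however, ARG1 averaged 11.83, against 11.56 in liver, and CYP8B1 averaged 3.57, against 3.43 in liver. The rest had their highest tissue mean in liver. Several arrays outside liver stood apart. The abdominal fat of the Large White female and the neurohypophysis of the Iberian male each held 5 of the 8 carrier probes at least 1 log2 unit above the other 3 arrays of their tissue, and the Large White male's pineal gland had little of the pineal genes SAG and NEUROD1. Tissue calls that rest on these arrays are given with and without them. Likeness between genes and the comparison of HP between breeds over tissues are given only with them.

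All 8 probes were higher in liver than in the mean of the 15 other tissues (limma, tissue, breed and sex as terms, p adjusted over all probes). Among all 23935 probes, 20.5% were called higher and 28.8% lower. Every carrier probe also exceeded the other tissues by more than 5 log2 units, a size reached by 0.744% of all probes, and in all 8 the 4 livers lay above all 60 other arrays, against 2.88% of all probes. The median difference over all probes was -0.05.

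ALB read 14.08, 14.15, 14.12 and 14.15 in the livers of the Large White male, Large White female, Iberian female and Iberian male, an order kept for all sets of 4 values here. The SD was 0.03, at a level close to the top of the array's range, where saturation can narrow differences, which was not tested. ALB averaged 14.12 in liver and 4.95 in the other tissues, a difference of 9.17 ± 0.64 (SE, adjusted p 5.8e-18). No fold is given, since 44 of the 60 other arrays lay below the median of all values. The next tissue, abdominal fat, averaged 6.66. The lowest liver lay 3.03 above the highest array elsewhere.

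TTR, the thyroxine carrier, read 12.95, 12.80, 12.68 and 12.83 in the livers. It averaged 12.82 ± 0.11 (SD, n = 4) in liver and 4.70 in the other tissues, a difference of 8.11 ± 0.40 (SE, adjusted p 3.3e-24). RBP4, its partner in retinol transport, read 12.94, 12.92, 13.10 and 12.90. It averaged 12.96 ± 0.09 (SD) in liver and 6.36 elsewhere, and its difference of 6.61 ± 0.50 (SE, adjusted p 1.1e-16) was the smallest of the 7 main probes, since several other tissues held it at high levels. The lowest liver exceeded the highest array elsewhere, a pineal gland, by only 0.54. When liver and pineal gland alone were fitted, the difference of 2.78 was not called, whereas with the spread of all tissues it was (adjusted p 5.1e-04). The second RBP4 probe read 10.35, 10.43, 9.47 and 9.78 in liver, a mean of 10.01 ± 0.46 (SD) against 4.78 elsewhere, with a difference of 5.22 ± 0.20 (SE, adjusted p 2.1e-29).

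HP, which clears free haemoglobin, read 13.38, 13.44, 13.40 and 13.20 in the livers and was 8.78 ± 0.44 above the other tissues (SE, adjusted p 1.0e-23). AHSG, the mineral-binding fetuin, read 13.44, 13.29, 13.18 and 13.28 and was 8.12 ± 0.25 above them (adjusted p 5.2e-33). AMBP, the microglobulin and bikunin precursor, read 12.31, 12.25, 11.88 and 12.27 and was 8.23 ± 0.21 above them (adjusted p 7.4e-37). Their next highest means were 6.69 in adrenal medulla for HP, 6.19 in blood for AHSG and 5.05 in blood for AMBP. ITIH4, the acute phase protein, varied more between livers, with 11.60, 11.90, 12.59 and 12.05, both Iberian values above both Large White ones, a split without overlap that 47.6% of all probes showed in liver in one direction or the other. It averaged 12.03 ± 0.41 (SD) in liver and 5.26 elsewhere, 6.77 ± 0.18 apart (SE, adjusted p 1.6e-36).

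**Figure D1:**
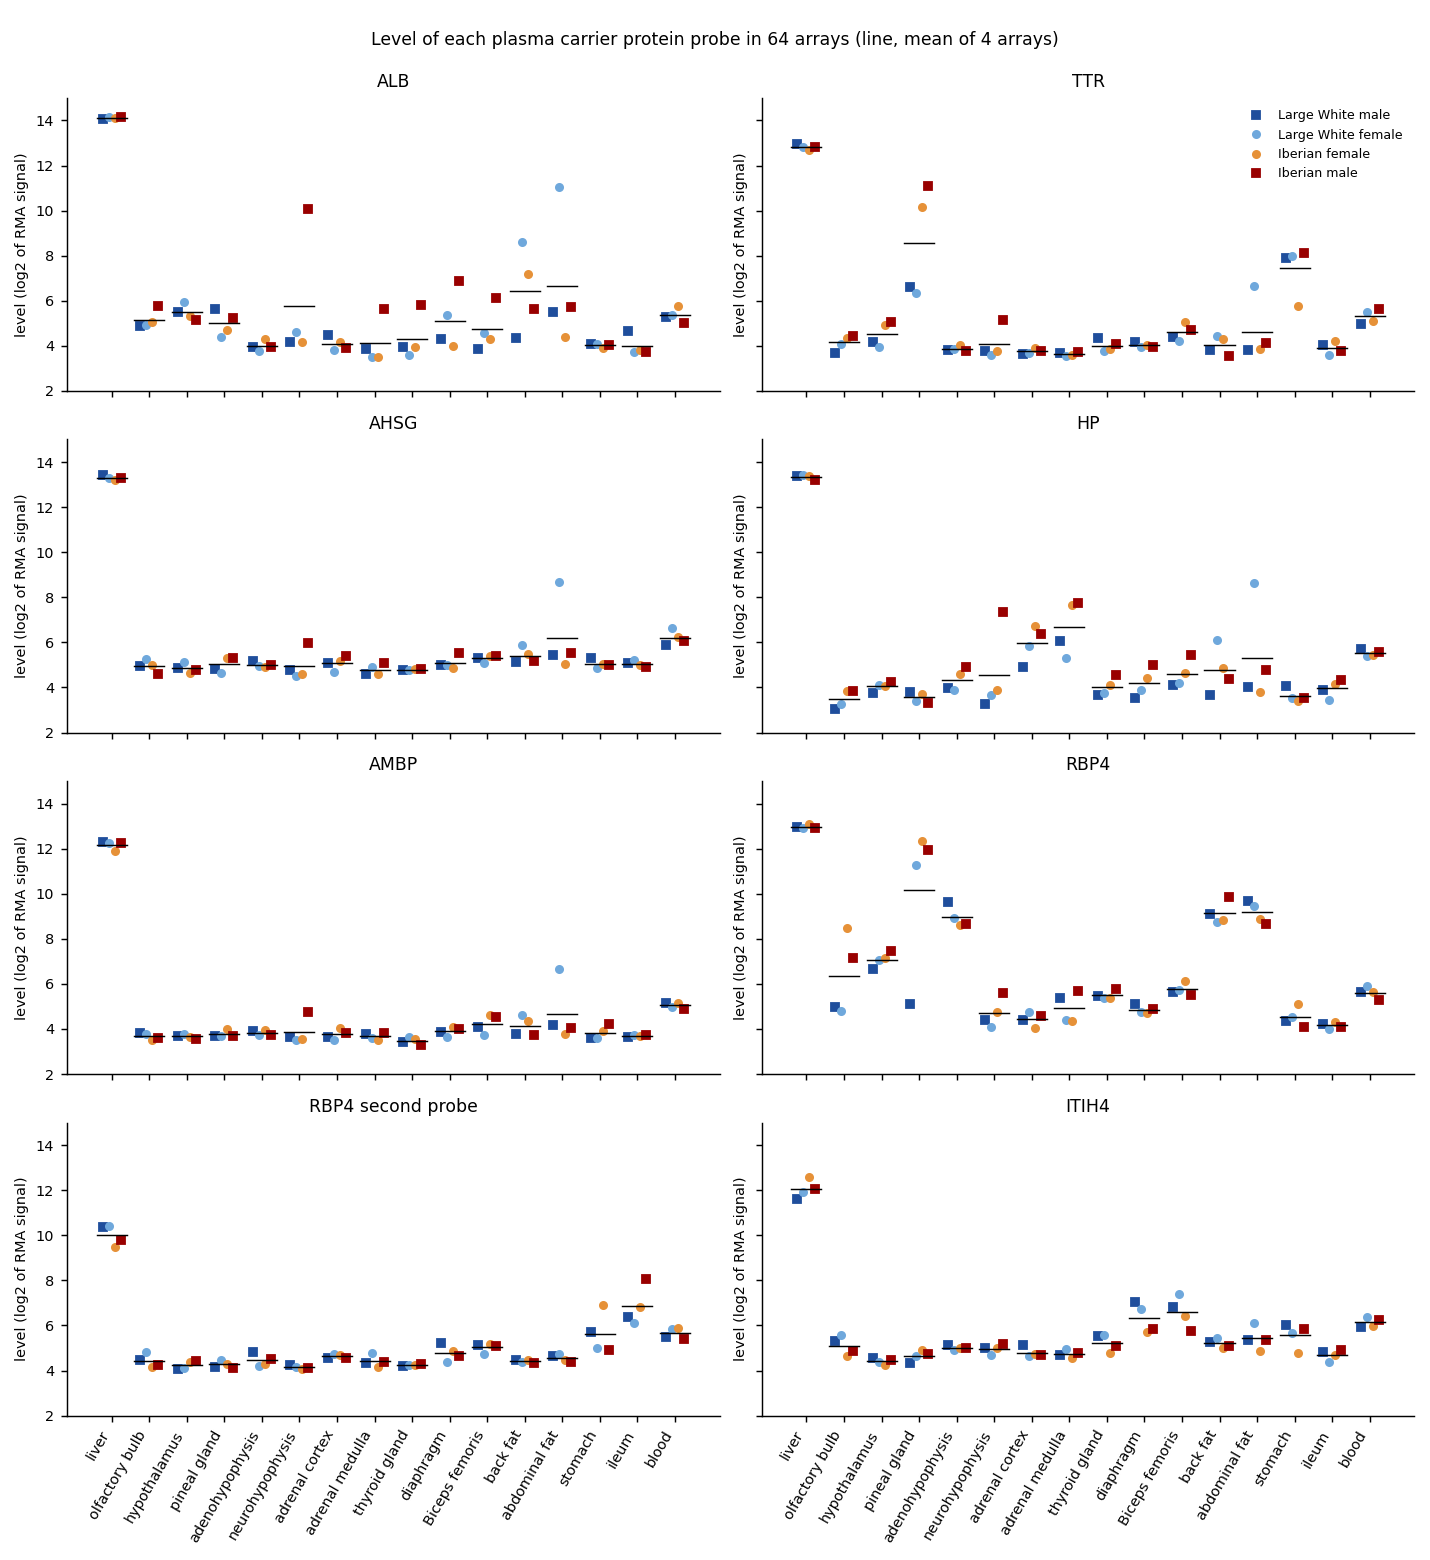
Level (log2 of the RMA signal) of the 8 carrier protein probes in 16 tissues, liver leftmost. Each point is the array of 1 animal and each line the mean of 4 arrays. The 4 livers lie above every other array in each panel, from 0.54 log2 units above for RBP4 to 5.23 for AMBP, and TTR and RBP4 are the panels with further tissues well above the rest.

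Sites outside liver were called where a tissue exceeded the mean of the 14 other tissues without liver by at least 1 log2 unit with an adjusted p under 0.05. This gave 17 of 120 pairs of a probe and a tissue, against 7.21% of such pairs over all probes. They fell in 11 tissues, and the share of all probes called there was 7.67% in pineal gland, 5.36% in stomach, 5.98% in adenohypophysis, 6.3% in back fat, 5.92% in abdominal fat, 8.04% in ileum, 5.1% in adrenal medulla, 5.12% in adrenal cortex, 6.76% in diaphragm, 7.32% in Biceps femoris and 15.5% in blood.

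TTR was high in pineal gland and stomach. In the pineal gland it read 6.63, 6.35, 10.18 and 11.09, so that both Iberian glands lay far above both Large White ones (41.4% of all probes were split by breed in this tissue). The mean was 8.56 ± 2.42 (SD), which was 4.13 ± 0.40 above the other tissues (SE, adjusted p 1.1e-12). In stomach epithelium TTR read 7.92, 8.0, 5.79 and 8.12, a close set of 3 with the Iberian female below it. The mean of 7.46 was 2.95 ± 0.40 above the other tissues (adjusted p 2.1e-08). Pineal gland and stomach overlapped and did not differ by the test (1.10, adjusted p 0.091), while stomach exceeded blood, the next tissue, by 2.15 (adjusted p 5.3e-04). The low stomach array also held less of the gastric epithelium genes, whose mean over 6 genes was 11.63 there and 12.94 to 13.11 in the other stomachs, and more of the endocrine gene SST, at 11.19 against 8.38 to 8.87. The part of these in the low TTR value was not tested.

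In the other brain samples TTR was low, at 3.68 to 5.07 in olfactory bulb and hypothalamus. Of the choroid plexus genes listed, 4 of 13 were measured, and their mean in pineal gland was 4.88, 4.38, 4.93 and 4.73 in the 4 animals. The water channel AQP1 read 5.98 and 5.69 in the Iberian glands, against 4.92 and 4.43 in the Large White glands, whereas FOLR1 differed little, at 6.58 and 6.60 against 6.82 and 6.43. The part of choroid plexus in the pineal TTR values was not tested.

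RBP4 had the widest set of further tissues. In pineal gland it read 5.12, 11.29, 12.36 and 11.95, so that 3 glands approached the liver and the Large White male lay far below. Its mean of 10.18 was 4.10 ± 0.50 above the other tissues (SE, adjusted p 1.0e-09). The same low array read 5.09 for the photoreceptor arrestin SAG, against 10.36, 8.80 and 8.08 in the other glands, and 6.10 for the transcription factor NEUROD1, against 9.24, 9.27 and 9.22. Its mean over 5 glial and myelin genes was 8.92, against 6.57, 6.07 and 6.63. TTR, at 6.63, was not lowest in that array. Without it both pineal calls remained.

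Both fat depots held RBP4 at similar levels in all animals. Back fat read 9.10, 8.76, 8.82 and 9.84 and lay 2.97 above the other tissues (adjusted p 2.2e-06), or 7.82-fold. Abdominal fat read 9.69, 9.48, 8.88 and 8.64 and lay 3.01 above them (adjusted p 1.8e-06), or 8.08-fold. Both folds are rough, since 28 of the 60 arrays outside liver lay below the median of all values for this probe. The depots overlapped and differed by 0.04. The 7 measured adipocyte genes had median levels of 10.67 in back fat and 10.15 in abdominal fat. Adenohypophysis read 9.63, 8.92, 8.62 and 8.66, 2.79 above the other tissues (adjusted p 7.0e-06) and close to the fats, and it exceeded hypothalamus, the next tissue, by 1.88 (adjusted p 0.026). Hypothalamus, at 6.65, 7.05, 7.14 and 7.45, was not called. Olfactory bulb was split by breed, with 4.96 and 4.80 in the Large White animals, against 8.49 and 7.13 in the Iberian ones (52.2% of all probes were split there).

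The second RBP4 probe gave another picture outside liver. It was called in ileum, where it read 6.40, 6.11, 6.81 and 8.05, 2.21 ± 0.20 above the other tissues (SE, adjusted p 5.2e-14), and it stayed at 4.27 in pineal gland, 4.45 in adenohypophysis, 4.42 in back fat and 4.56 in abdominal fat. The main probe averaged only 4.17 in ileum. Over 16 tissue means the correlation between the probes was 0.40, and over the 15 tissues other than liver it was -0.45, a description over means of the same arrays. The RBP4 sites outside liver thus differed between the probes, and which of them measures the transcript in these tissues was not tested.

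**Figure D2:**
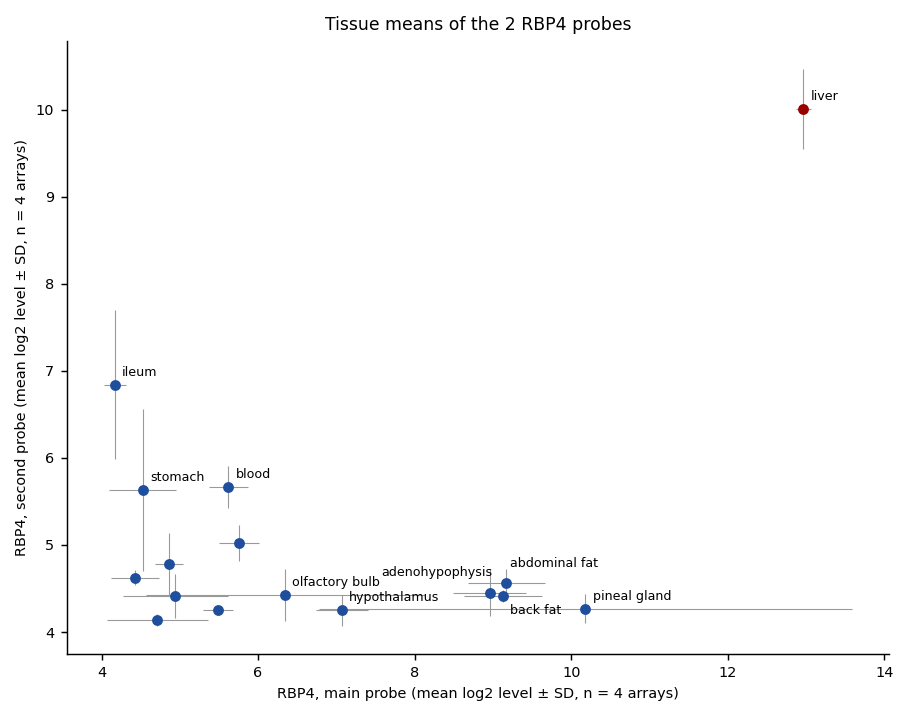
Mean level (log2) of the main RBP4 probe on the horizontal axis and of the second RBP4 probe on the vertical axis, 1 point per tissue with SD over 4 arrays on both axes. Liver stands high on both axes (12.96 and 10.01), pineal gland, adenohypophysis and the fats on the horizontal axis only, and ileum on the vertical axis only.

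HP was called in both parts of the adrenal gland. Adrenal medulla read 6.08, 5.28, 7.68 and 7.73, 2.27 ± 0.45 above the other tissues (SE, adjusted p 4.0e-05). Adrenal cortex read 4.90, 5.85, 6.74 and 6.38, 1.49 above them (adjusted p 0.0058). In both, the 2 Iberian values lay above the 2 Large White ones (31.4% of all probes were split by breed in medulla and 41.5% in cortex), and medulla and cortex overlapped (difference 0.72, adjusted p 1.0). The hepatocyte genes had medians of 4.11 in medulla and 4.20 in cortex, against 10.04 in liver. The site in cortex was not called without the Iberian female (1.23).

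ITIH4 was called in both skeletal muscles. Biceps femoris read 6.80, 7.41, 6.40 and 5.76, 1.43 ± 0.18 above the other tissues (SE, adjusted p 1.2e-09), and diaphragm read 7.02, 6.72, 5.72 and 5.86, 1.15 above them (adjusted p 3.4e-07). The muscles overlapped and differed by 0.26 (adjusted p 0.46). In diaphragm both Large White animals were above both Iberian ones, where 37% of all probes were split by breed. The diaphragm site was not called without the Large White male (0.95). These levels remained 5.44 or more below liver.

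In blood, AHSG read 5.88, 6.63, 6.22 and 6.05, 1.09 above the other tissues (adjusted p 1.5e-04), AMBP 5.16, 4.99, 5.17 and 4.89, 1.18 above them (adjusted p 2.5e-06), and HP 5.71, 5.38, 5.42 and 5.57, 1.01 above them (adjusted p 0.036). The means lay between 5.05 for AMBP and 6.19 for AHSG, with the median of all values at 5.47. The 11652 dim probes of the array were shifted in blood too, by a median of 0.51 against the other tissues, where the same shift lay between -0.18 and 0.15. HP in blood was not called after quantile normalization (0.98), median centring (0.99), or without the Large White male (0.77), the Iberian female (1.06) or that female's stomach array alone (0.998), AMBP not after quantile normalization (0.97), and AHSG not without the Large White female (0.99). The part of this shift in the blood calls was not tested.

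ALB was called in both fat depots and AHSG in abdominal fat, where 1 array stood far above the rest. In abdominal fat ALB read 5.48, 11.04, 4.39 and 5.74 (1.83 above the other tissues, adjusted p 0.019) and AHSG 5.43, 8.67, 5.05 and 5.55 (1.07, adjusted p 5.9e-04), the Large White female far above the other 3 in both. Without that array and the neurohypophysis of the Iberian male, the differences were 0.41 for ALB and 0.26 for AHSG and neither was called, and 15 of the 17 pairs remained. In back fat ALB read 4.34, 8.60, 7.18 and 5.63, 1.59 above the other tissues (adjusted p 0.042), with the Large White female highest, and it was not called without the Large White female (0.89) or the Iberian female (1.19).

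The abdominal fat array of the Large White female held 5 carriers above the other 3 arrays by at least 1 log2 unit, where 96 of all probes (0.401%) did so. Besides ALB and AHSG these were HP, at 8.65 against 3.82 to 4.77, TTR, at 6.67 against 3.84 to 4.12, and AMBP, at 6.65 against 3.78 to 4.16. RBP4, at 9.48, lay within the other arrays. Of the 29 other plasma proteins listed, 11 were raised there too, among them fibrinogen chain FGB, at 8.26 against 2.92 to 3.44, transferrin TF, at 8.68 against 3.94 to 4.81, and vitamin D-binding protein GC, at 7.81 against 4.27 to 4.39. Of the 96 probes, 62 (64.6%) belonged to the 690 whose livers lay above all other arrays, of which they were 8.99%.

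Among the 14 hepatocyte genes, 3 were raised by at least 1 unit in that fat sample: CYP2E1, a cytochrome P450, at 6.09 against 3.51 to 4.08, CPS1, of the urea cycle, at 4.82 against 3.33 to 3.58, and ARG1, also of the urea cycle, at 4.68 against 2.95 to 3.40. The mean over all 14 was 4.91, against 4.32 to 4.33 in the other abdominal fats. The part of liver RNA in these values was not tested.

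The neurohypophysis of the Iberian male read 10.07 for ALB, against 4.17 to 4.60 in the other 3 animals, and 7.35 for HP, against 3.28 to 3.91. AHSG, at 5.98 against 4.53 to 4.76, TTR, at 5.17 against 3.58 to 3.79, and AMBP, at 4.74 against 3.51 to 3.66, were raised less. Here 63 of all probes (0.263%) were raised by 1 unit, and 24 of them (38.1%) belonged to the 690 liver probes. Plasma proteins GC, TF, HPX and FGB were raised (4 of 29), as were CYP2E1 and HAO1 of the 14 hepatocyte genes. Some of these genes were raised in other tissues of the Iberian male too. HAO1 was raised in his olfactory bulb, hypothalamus, adrenal cortex, adrenal medulla, back fat and abdominal fat, and CYP2E1 in his blood. ALB was raised in his adrenal medulla, thyroid gland, diaphragm and Biceps femoris. Back fat of the Large White female held ALB and HP above the other arrays (2 of 8, against 0.104% of all probes), at 8.60 and 6.11. Of its 25 raised probes, 11 (44.0%) belonged to the 690 liver probes, with FGB alone of the 29 plasma proteins and 0 of the 14 hepatocyte genes. In 50 of the 60 arrays outside liver no carrier probe was raised in this way. The share of all probes raised on these 60 arrays ran from 0.0418% to 4.47%. At shares this low most sets of 8 probes would show none, so the count of 50 says little about the carriers.

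**Figure D3:**
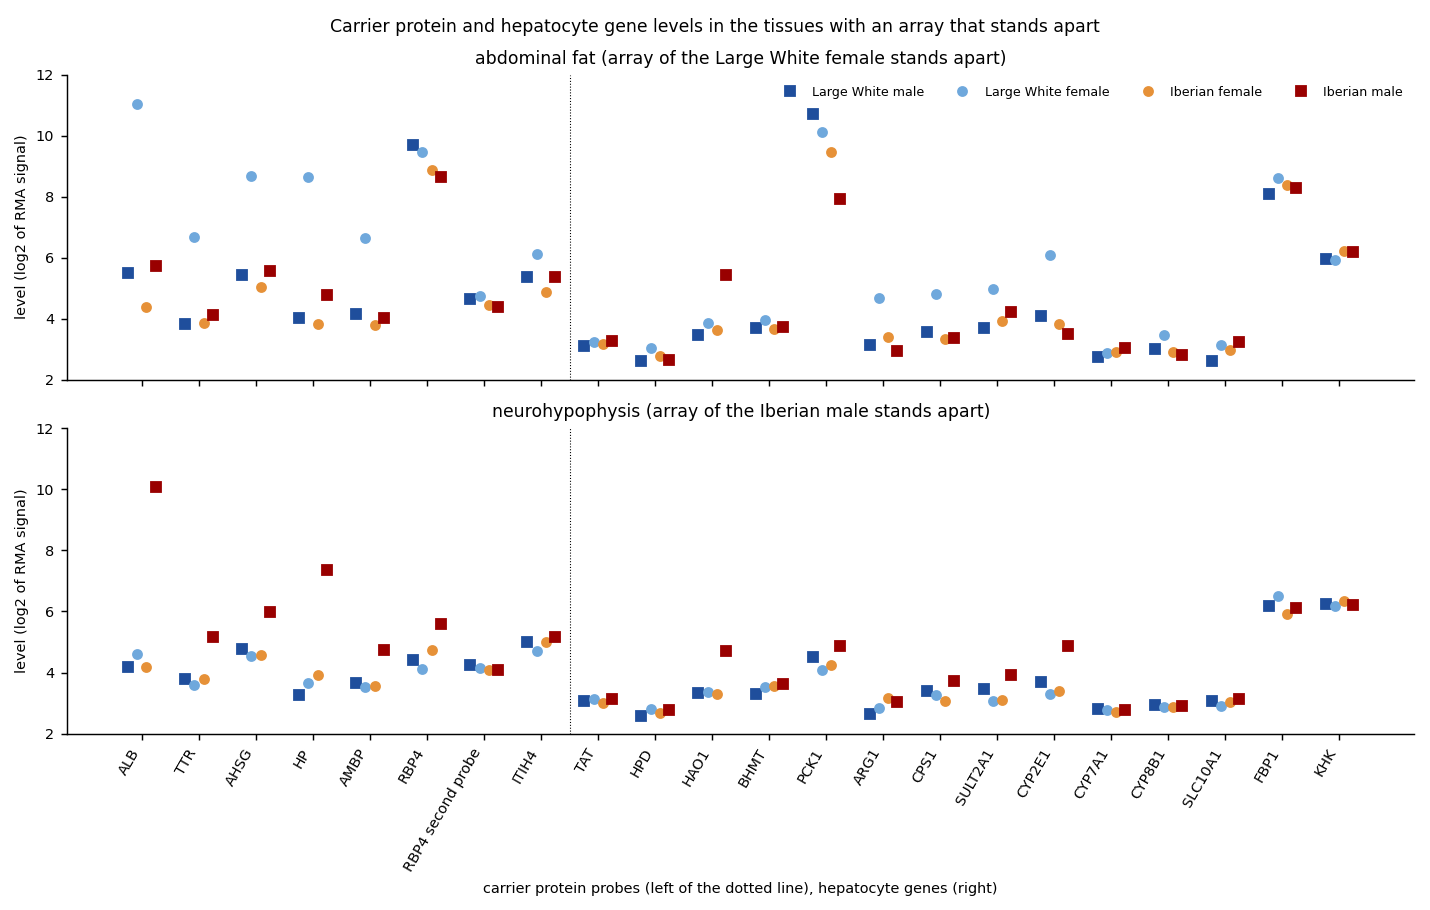
Level (log2) of the 8 carrier probes, left of the dotted line, and of 14 hepatocyte genes, right of it, in abdominal fat (top) and neurohypophysis (bottom), 1 point per animal. The Large White female is highest for ALB in abdominal fat (11.04) and the Iberian male in neurohypophysis (10.07), while most hepatocyte genes have 4 points close together.

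Other genes of plasma transport and of its control were set beside the carriers. Of 9 other carriers and binding proteins measured, 8 were higher in liver and 0 lower (median difference 6.0), and the exception was AFP, the fetal counterpart of albumin, at 4.11 in liver and 3.90 elsewhere. GC averaged 13.93 in liver and 4.46 elsewhere, and the haem carrier HPX 13.26 and 5.47. TF, the iron carrier, averaged 13.53 in liver, but 12.45 in hypothalamus. All 10 protease inhibitors measured were higher (median 6.81), including SERPINA1, the inhibitor of neutrophil elastase, which like TTR was next highest in pineal gland (8.11), and A2M, which averaged 13.19 in liver and 13.79 in adrenal medulla. Of 10 acute phase proteins, 9 were higher and SAA2 was lower (7.54 in liver and 7.87 elsewhere).

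The genes that receive, recycle or control the carriers had smaller median differences. Among 6 receptors and recycling genes, 4 were higher and 1 lower (median 0.70): the haptoglobin-haemoglobin receptor CD163 averaged 9.06 in liver and 9.25 in abdominal fat, and FCGRT, which recycles albumin, 10.54 in liver and 10.68 in abdominal fat, whereas the endocytic receptor LRP2 was lower in liver (3.79) and peaked in thyroid gland (8.97). Of 5 genes of cellular retinoid handling, 3 were higher (median 0.38), and RBP2, the intestinal retinol-binding protein, peaked in ileum at 6.97. Of 9 liver-enriched transcription factors, 7 were higher (median 1.43), among them NR5A2 and HNF4A, the latter at 9.70 in liver and 9.36 in ileum. FOXA1, also called higher, averaged 7.39 in liver but 8.18 in stomach. FOXA2 and CEBPB, called higher too, likewise had a higher mean in another tissue than in liver. Of 9 genes of acute phase signalling, 4 were higher (median 0.25), led by the interleukin receptor IL1R1 with a difference of 3.39.

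**Figure D4:**
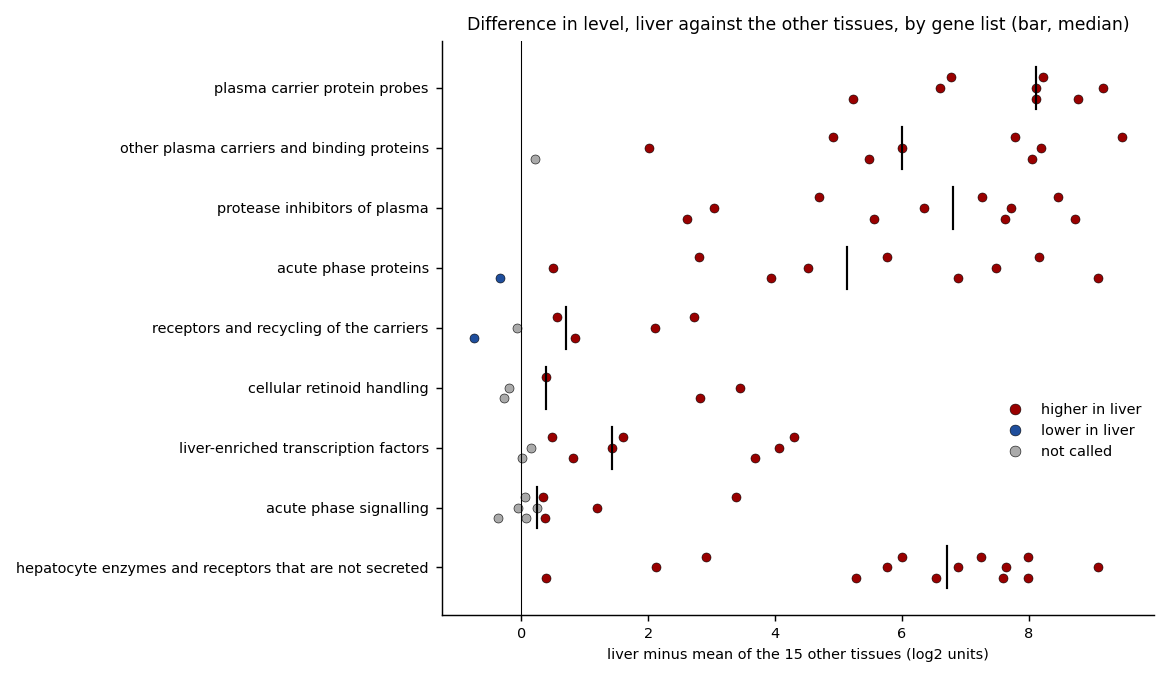
Difference in level, liver minus the mean of the 15 other tissues (log2 units), with 1 point per probe or gene grouped by list, coloured by call, and the median as a bar. The 8 carrier probes lie between 5.22 and 9.17, in the range of the other secreted proteins. The hepatocyte genes that are not secreted have a similar median of 6.71, whereas receptors, retinoid genes, transcription factors and signalling genes have medians of 0.25 to 1.43.

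The genes most like each carrier were taken from the 15 tissue means without liver, by Pearson's r, as a description over means that share arrays. TTR was followed by KLHL18 (0.81) and SERPINA1 (0.80), then UPTI, NEUROD1 and SAG, all of which had their highest mean outside liver in pineal gland. RBP4 was most like CLSTN3 (0.88) and RXRG (0.80), and the second RBP4 probe most like SFN (0.99) and CD1E (0.97), followed by CXCR6, SLC15A1 and ATP2C2, which like these were highest in ileum outside liver. HP was most like TFAP2B (0.90) and SHISA5 (0.88), and ITIH4 most like PPP1R15A (0.92) and FOXO3 (0.90). AHSG and AMBP were most like HPX (0.97 for each) and like each other (0.96), and ALB was most like SVBP (0.87) and FGB (0.86). All these values take in the arrays that stand apart, such as the abdominal fat array in which ALB, AHSG, AMBP and FGB were raised. They are not given without those arrays.

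In liver, 0 of 8 probes were called different between Large White and Iberian pigs, where 2.67% of all probes were called, and 0 of 8 between males and females, where 0.163% were. At an unadjusted p under 0.05 there were 2 for breed and 0 for sex (the share of all probes at that threshold is not given here). These were the second RBP4 probe, 10.39 in Large White and 9.63 in Iberian livers (difference 0.77 ± 0.36 SE, adjusted p 0.30), and ITIH4, 11.75 and 12.32 (-0.57 ± 0.27, adjusted p 0.33). With 2 animals against 2, an exact permutation test could not go below 0.333, and the p-values given draw on the spread in all tissues. For some probes that spread was far wider than in liver. The SD of ALB was 0.03 in liver, 2.88 in neurohypophysis and 2.98 in abdominal fat, and that of TTR 0.11 in liver and 2.42 in pineal gland. For such probes only a large liver difference could be called, so the 0 does not show that their livers were alike. A breed difference in liver unlike that in the other tissues was called for 0 of 8 probes (1.45% of all probes called). At an unadjusted p under 0.05 there were 2 of 8, again without the share of all probes. The lowest adjusted p was that of ITIH4 (-0.87 ± 0.28, adjusted p 0.12).

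In the separate tissues, a comparison added after the levels were seen, 4 of 120 pairs of probe and tissue outside liver were called for breed and 0 for sex, against 1.77% and 0.288% of such pairs over all probes. TTR in pineal gland averaged 6.49 in Large White and 10.63 in Iberian animals, 4.15 lower in Large White (SE 0.52, adjusted p 3.3e-06; 3.1% of all probes called there), and remained called without the Large White male's pineal gland (-4.26, adjusted p 1.3e-04). RBP4 in pineal gland was 3.95 lower in Large White (adjusted p 0.0044), but -0.82 without that array and not called, and not called either without the Iberian female (-3.87) or the Iberian male (-4.02). For RBP4 in olfactory bulb, the breed difference of -2.93 was not called (adjusted p 0.11, with 0.61% of all probes called there). Without the same pineal array this difference was unchanged at -2.93 but called (adjusted p 6.9e-06). That array enters the olfactory bulb comparison only through the spread shared by all tissues. The difference was also called without the Large White male (-3.01) and without the Large White female (-2.86). AMBP in abdominal fat, 1.5 higher in Large White (adjusted p 0.041; 0.873% of all probes), was 0.24 without the Large White female. It was not called without either Iberian animal (1.31 without the female and 1.69 without the male), nor on the natural logarithm of the deposited values (adjusted p 0.093).

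ITIH4 was 1.03 ± 0.27 higher in Large White than in Iberian Biceps femoris (SE, adjusted p 0.012), where 13.5% of all probes were called, a call lost without the Large White female (0.66), the Iberian female (1.32) or the Iberian male (0.73). It was 1.08 higher in diaphragm, not called (adjusted p 0.057; 0.568% of all probes). Its mean over the 15 tissues other than liver was 5.42 in Large White and 5.11 in Iberian pigs (difference 0.31 ± 0.07 SE, adjusted p 0.0021), where 13.2% of all probes were called, and the call was lost without the Large White female (0.22) or without the Iberian female (0.19). By animal, these means were 5.40 and 5.44 in the Large White male and female, against 5.02 and 5.195 in the Iberian female and male. The SE above rests on the spread between arrays of tissues, while over the 4 animals an exact two-sided permutation test gave 0.333, the smallest p that 2 against 2 can give. The Large White mean was above in 12 of 16 tissues, which 11.9% of all probes also reached, and in liver it was below. HP went the other way: both Large White arrays lay below both Iberian ones in 9 of 16 tissues, which 2.97% of all probes also reached in that direction, and the mean over the 15 other tissues was 0.49 lower in Large White, not called (adjusted p 0.12). By animal, these means were 4.10 and 4.56 in the Large White male and female, against 4.63 and 5.02 in the Iberian female and male (exact permutation test, 0.333). They take in the arrays that stand apart in neurohypophysis (breed difference -2.16) and abdominal fat (2.05). In liver HP hardly differed, at 13.41 in Large White and 13.30 in Iberian pigs.

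**Figure D5:**
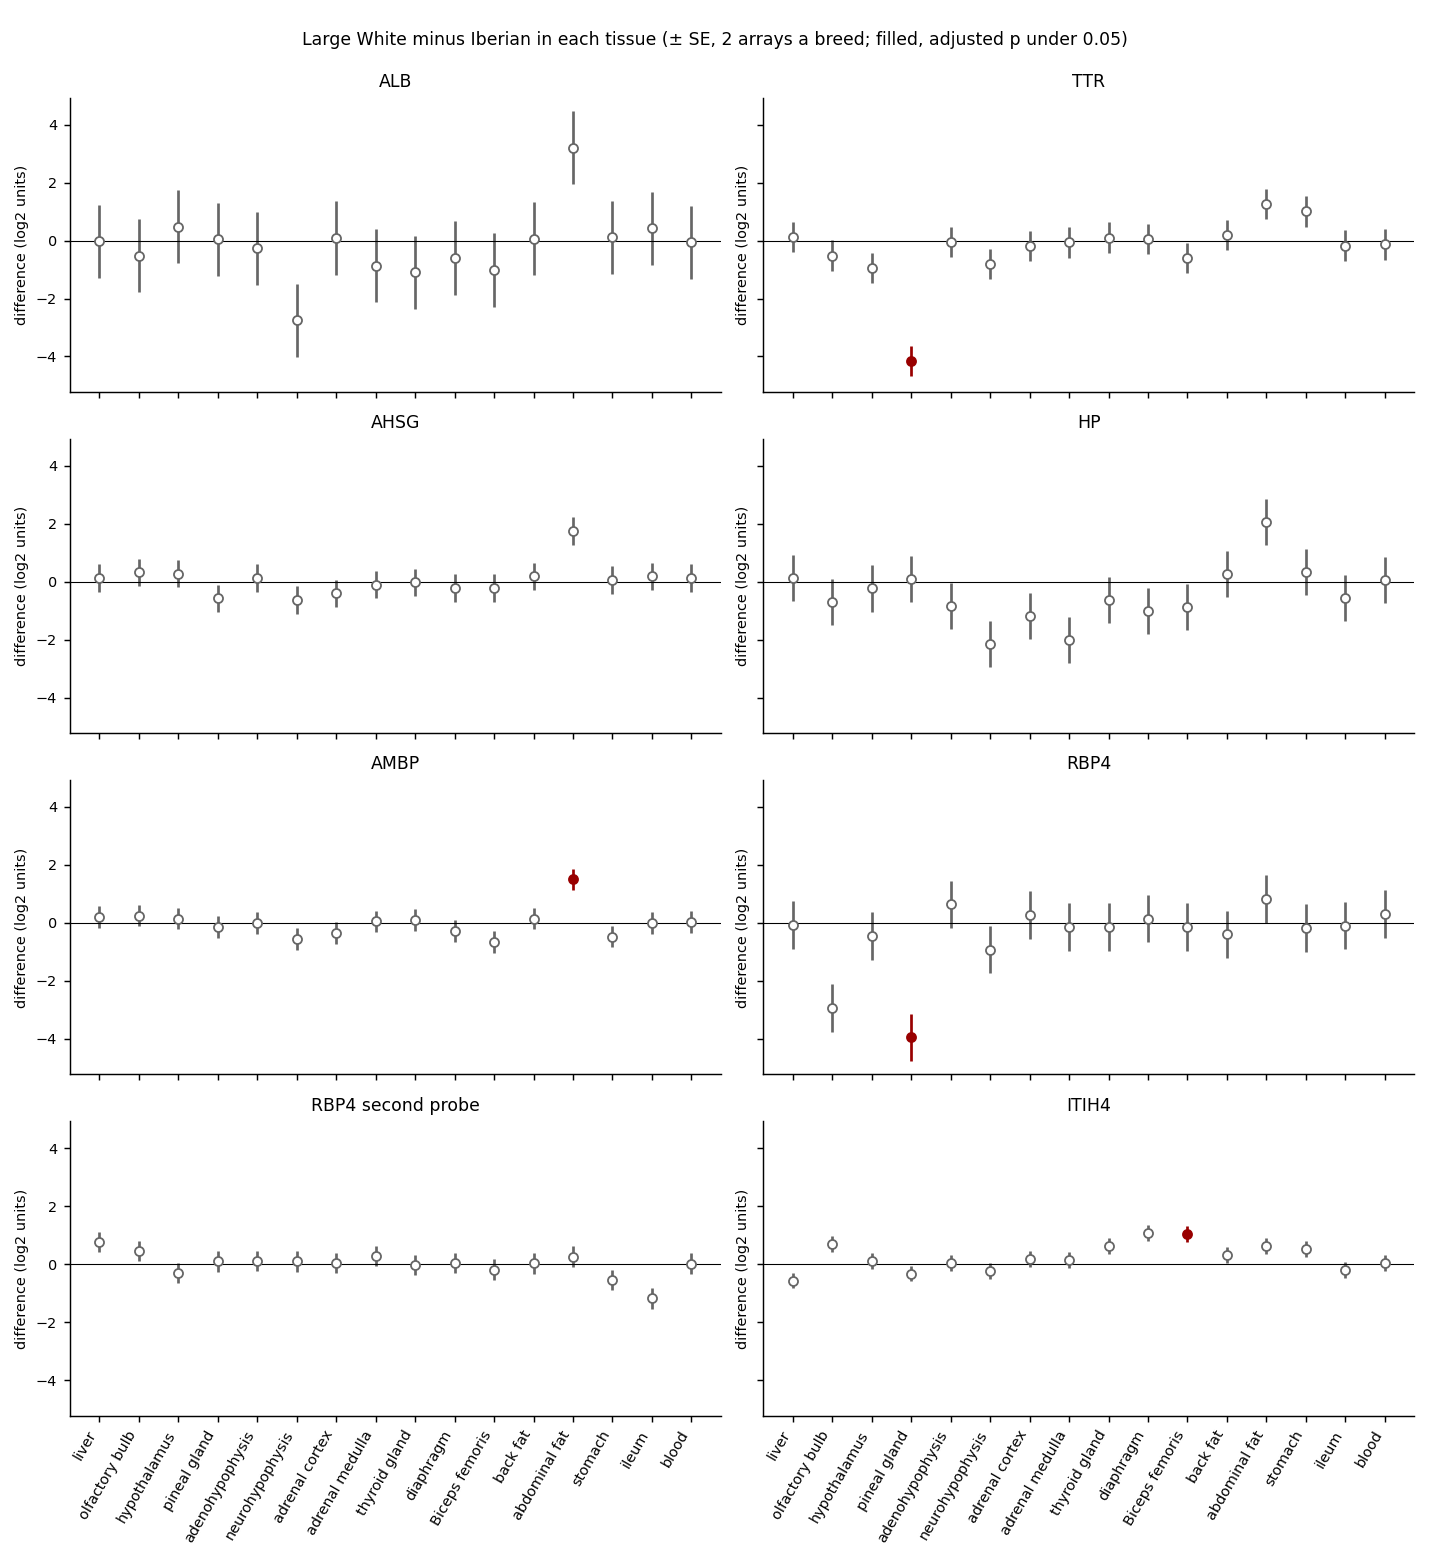
Large White minus Iberian difference in level (log2 units, ± SE of the model) in each tissue for the 8 carrier probes, 2 arrays a breed, filled where the adjusted p was under 0.05. Liver, leftmost, lies near 0 for ALB, TTR, AHSG, HP, AMBP and RBP4, and TTR and RBP4 in pineal gland reach -4.15 and -3.95.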

How the data were processed

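Total RNA of 16 tissues of 4 pigs was measured on 64 arrays. The authors generated signals with GCOS, a tool the submitters' processing notes name as well, and applied RMA to the arrays jointly in libaffy (versions: not given in the sources used here). Deposited values are signals taken as log2 (from their range) of 24123 probe sets, of which 188 control sets were left out. All columns belonged to a sample (0 did not). Because RMA sets all arrays to 1 distribution, a tissue with few very abundant transcripts can be shifted as a whole, and very bright probes may saturate, so that fold changes are those of signals. No array-level detection calls were used here, and the number of arrays limits the precision.

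Gene symbols are those of the platform's annotation, some of it possibly outdated: 10069 probes had 1 symbol, 198 several and 13668 none. No sequences or coordinates are given. Members and lists were chosen with earlier results of these data known. Every probe of a member was described. Of several probes of a gene the brightest was used. Tissues were named where called, otherwise the next highest, and the 5 most similar named genes were found by Pearson's r, of which at least 2 are printed. Genes named from the lists, the markers and the arrays that stand apart were chosen after their values were seen.

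Tissue, breed and sex were fitted by limma 3.58.1 in R 4.3.3 over all 64 arrays, and breed or sex within tissue by a mean per tissue and breed or sex. P-values were adjusted by Benjamini-Hochberg over 23935 probes at 0.05. The comparisons of tissues with their neighbours used the same fit. Python 3.11.15, numpy 2.4.6, pandas 2.3.3 and matplotlib 3.10.9 did the rest, and the fits were tested on simulated data. Arrays of the same animal deviated together: the mean correlation of deviations was 0.19 over 480 pairs of tissues (385 over 0.1) and -0.06 over 1440 pairs of different animals. Deviations from a tissue's mean sum to 0 over its animals, so the negative value largely follows from the first and is no separate check. The pairing comes from the animals, which the labels identify by breed and sex. The alternatives were the natural logarithm, quantile normalization, median centring, a filter on dim probes, the animal as a block, robust moderation, other limits and leaving out animals or arrays.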

Additional observations from a re-analysis of the deposited data

Results flagged for a closer look

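In 16 of 128 groups of 4 arrays (8 probes in 16 tissues), the highest or lowest array stood farther from the nearest of the others, as a share of the range, than Dixon's critical value allows. For independent groups of normal values, chance would flag about 1 group in 20. These groups share arrays and mix breeds and sexes, and the share over all probes is not given, so the count is not read as an excess. In the neurohypophysis the Iberian male was highest for ALB (10.07), TTR (5.17), AHSG (5.98), HP (7.35) and AMBP (4.74). In abdominal fat the Large White female was highest for TTR (6.67), AHSG (8.67) and AMBP (6.65). For RBP4 in the pineal gland the Large White male was lowest (5.12, with the nearest other array at 11.29), and for TTR in stomach the Iberian female was lowest (5.79, with the nearest at 7.92).

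The others were smaller in log2 units. ALB was highest in the thyroid gland of the Iberian male (5.80) and in the ileum of the Large White male (4.66), AHSG in the diaphragm of the Iberian male (5.52), AMBP in the pineal gland of the Iberian female (4.0) and ITIH4 in the adrenal cortex of the Large White male (5.12). In liver, AMBP was lowest in the Iberian female (11.88), with the nearest liver at 12.25.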

How the results depend on the processing

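The count of 8 carrier probes higher in liver was the same under each alternative that used all other tissues, and 7 with liver and the next tissue alone, where RBP4 was not called. The filter on dim probes counted liver among the tissues, so that no carrier probe could drop out. It is therefore no check of this count. The 17 sites outside liver became 8 with a limit of 2 log2 units in place of 1, and 21 with none. They ranged from 14 to 19 when 1 animal was left out. Quantile normalization and median centring gave 16 each, and lost HP in blood (0.98 and 0.99), the first also AMBP in blood (0.97) while it gained ITIH4 in blood. With the animal as a replicate block, a fixed term for the tissue comparisons, there were 17, the same pairs. For breed and sex the block was random, with an estimated correlation of -0.00044 and -0.0078, so that it could hardly alter a value there and is no check of those results. It changed no call. The ALB site in back fat was lost without the Large White female (0.89) or the Iberian female (1.19), the ITIH4 site in diaphragm without the Large White male (0.95), and the HP site in adrenal cortex without the Iberian female (1.23). In liver, breed, sex and the difference of breed between liver and other tissues stayed at 0 probes called under each alternative run. Where the spread of all tissues was used, this is a weak check for probes that varied widely outside liver. Breed calls in the separate tissues numbered 4, and from 2 to 8 when 1 animal was left out, when 1 breed is left with a single animal that is assumed to vary like the others. Of all values computed under alternatives, 729 were labelled the same. That label took in values that kept direction and side of the threshold and counts within 1.5 times. It also took in values not called in the main fit, even where their sign changed. A further 38 kept direction but lost their call, 3 counts moved by more than 1.5 times, and 0 values called in the main fit changed sign. The causes of these changes were not tested.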
